A study of Sus scrofa domesticus with 16 samples.

Results

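EXTL3, ARSB and XXYLT1 encode enzymes of glycan synthesis and turnover, and together they held 4 of the 2349 differentially methylated sites (DMSs) listed for pig lung after an increased dose of cholecalciferol (vitamin D3). The sites were taken by gene symbol from the authors' deposited table, which gave 1 site in EXTL3, 1 in ARSB and 2 in XXYLT1. Every site in that table had been selected on the contrast described here, with a difference of at least 25 percentage points and a q-value under 0.05, and the genes were chosen with these values known. The sign of the difference is not stated in the table. It was read as increased minus standard dose, and every statement on hyper- or hypomethylation rests on that reading. The differences and q-values below are a description of the deposited values, and no test was made on them.

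Lung DNA of 16 pigs was cut with the enzyme MspI and bisulfite-sequenced (RRBS), which reads the methylation of cytosines next to the cuts. The standard group of 8 animals (4 males and 4 females) was fed cholecalciferol at 2000 IU/kg of grower and 1500 IU/kg of finisher feed, and the increased group of 8 (4 males and 4 females) at 3000 and 2500 IU/kg. Both groups were otherwise on the same feed in individual pens until slaughter, and no untreated group and no other agent was used. The tissue came from the middle of the upper lobe of the left lung, and an altered mix of cell types cannot be told apart from altered methylation within a cell type. Values for single animals and read depths were not used here, so the spread between animals behind each difference, and the depth behind it, are unknown. The lung label was not checked against marker genes, since the table holds no expression values.

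Glycosaminoglycans are long sugar chains, most of them sulfated and carried by proteoglycans. At the cell surface and in the extracellular matrix they bind growth factors and hold water in the lung interstitium. EXTL3 is the exostosin-like glycosyltransferase that, in human and mouse, begins heparan sulfate chains by adding N-acetylglucosamine to the linker on the core protein. ARSB is the lysosomal sulfatase that removes sulfate from N-acetylgalactosamine when dermatan sulfate and chondroitin sulfate are degraded, and its loss in humans causes a mucopolysaccharidosis. XXYLT1 acts outside this pathway, adding the terminal xylose to O-glucose glycans on epidermal growth factor (EGF) repeats, such as those of Notch receptors.

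The bases around the 4 CpGs are shown because the EXTL3 and ARSB sites lay in a repeat and the XXYLT1 sites did not, as described further down. Over all listed sites on chromosomes this did not separate the directions. Hypermethylation was listed for 60.9% of sites in the repeat and 58.1% of the others. They were read from the RefSeq copy of Sscrofa11.1, 60 bases to each side, with the listed CpG in capitals. The windows were chr14:12537604-12537725 for EXTL3 (minus strand, so that it runs parallel to the ARSB window), chr2:87731673-87731794 for ARSB, and chr13:132097471-132097592 and chr13:132101988-132102109 for XXYLT1 (plus strand for these 3).
EXTL3: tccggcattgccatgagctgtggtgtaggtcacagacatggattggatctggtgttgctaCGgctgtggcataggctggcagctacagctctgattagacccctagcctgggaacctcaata
ARSB: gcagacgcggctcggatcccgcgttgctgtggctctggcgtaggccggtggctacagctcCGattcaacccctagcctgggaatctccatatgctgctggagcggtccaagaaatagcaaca
XXYLT1, site with the smaller difference: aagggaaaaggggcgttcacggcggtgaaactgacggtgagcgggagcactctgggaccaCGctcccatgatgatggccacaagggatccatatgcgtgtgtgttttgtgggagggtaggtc
XXYLT1, site with the larger difference: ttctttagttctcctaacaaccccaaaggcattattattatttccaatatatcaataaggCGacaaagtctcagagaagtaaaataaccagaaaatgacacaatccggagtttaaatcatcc

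The EXTL3 site, at position 12537664 of chromosome 14, was hypermethylated by 55.8 points with the increased dose (deposited q-value 5.23e-31). The gene runs from 12437551 to 12563548 on the plus strand, and the site lay in intron 4 of all 3 RefSeq transcripts, each of 7 exons. This intron spans 9826 bp, and the CpG was 7133 bp beyond the exon before it and 2694 bp ahead of the exon after it. Of the 2760 coding bases, 2276 lie before the intron. The site was 100113 bases after the most distant of the transcript starts and 46857 bases after the nearest one.

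The ARSB site, at position 87731733 of chromosome 2, was hypermethylated by 55.8 points too, with a deposited q-value of 4.49e-87. The EXTL3 and ARSB differences were 0.0621 points apart, and no other listed gene symbol lay between them when the 898 symbols were ordered by their largest signed difference. The ARSB gene runs from 87614938 to 87779553 on the minus strand, and the site was in intron 4 of both 8-exon transcripts, 47820 bases after the transcript start. The intron is 50918 bp long, with 901 coding bases before it. RefSeq also places the site in an intron of LOC110259406, a noncoding RNA gene on the opposite strand.

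XXYLT1 was hypomethylated at both of its sites. The deposited difference was -46.4 points at 132097531 of chromosome 13 (q-value 1.58e-16) and -51.4 points at 132102048 (q-value 1.57e-23), 5.08 points apart. Both CpGs were in intron 3 of the only RefSeq transcript, which has 4 exons on the minus strand between 132066896 and 132269986. They lay 172455 and 167938 bases after the transcript start, in an intron of 76263 bp that follows 785 of the 1182 coding bases. The distance between the sites was 4517 bp.

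**Figure D1:**
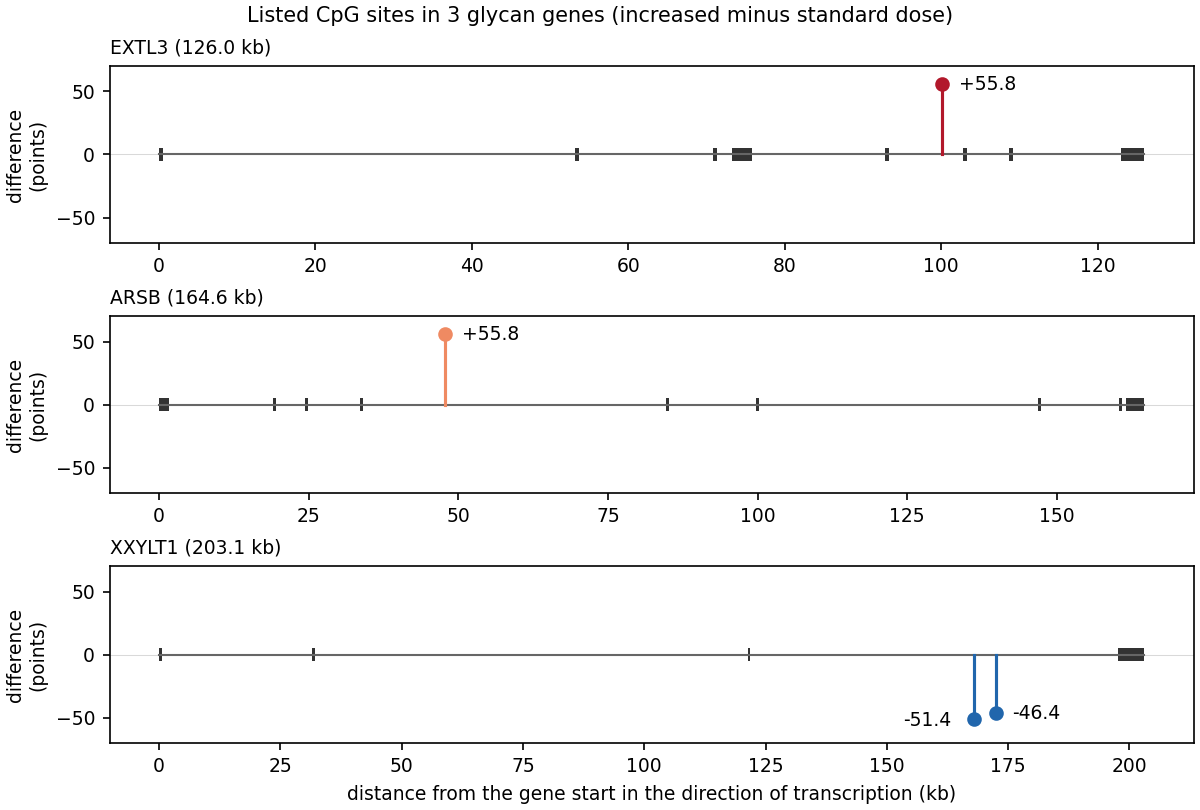
Each panel shows a gene from its start in the direction of transcription (kb), with exons of all RefSeq transcripts as dark boxes and listed CpGs as stems whose height is the deposited methylation difference (percentage points, increased minus standard dose). All 4 sites were intronic, at +55.8 points in EXTL3, +55.8 in ARSB, and -51.4 and -46.4 in XXYLT1.

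The first column of the deposited table holds row numbers up to 667810, which were read as the order of all tested sites, since the step between neighbouring listed sites exceeded the number of reference CpGs in 0 of 2232 pairs. Listed sites were then 0.352% of those tested. Only 2 tested sites lay between the XXYLT1 sites, although the reference holds 89 CpGs there, so the 2 sites were close neighbours among the tested ones. Neither of the 2 sites in between was listed, and their differences were not analysed here. Of 128 genes with exactly 2 listed sites on a chromosome, 102 had both in the same direction and 35 had both hypomethylated. In 73 of these genes the sites were over 1000 bp apart, as in XXYLT1. Of the 73, 55 had both sites in the same direction and 19 had both hypomethylated. XXYLT1 ranked 3rd of the 128 by the smaller of the 2 differences, directly behind EPYC at 50.4 points and ahead of SMOC1 at 44.3 points. The gene was chosen with these differences known, so its rank follows from the choice.

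The 4 sites were among the larger differences in the table, where the median size was 30.4 points and the largest 66.3. ARSB ranked 27th and EXTL3 28th of 2349 by size, and the XXYLT1 sites 57th and 130th. By q-value the order was wider apart, with ARSB at rank 64, EXTL3 at 468, and XXYLT1 at 696 and 1094. The read depth and the unit of the test behind these q-values are unknown, so these ranks are no measure of consistency between animals. Of the 4, 3 exceeded 50 points, against 3.11% of all listed sites, a share that the choice of genes fixed. Ordered by signed difference with 1 site for each symbol, the genes next to the members were KCNH1 (56.3 points) above ARSB, BSPH1 (54.6) below EXTL3, and CNNM1 (-50.9) and CACNG8 (-51.6) on the sides of XXYLT1.

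**Figure D2:**
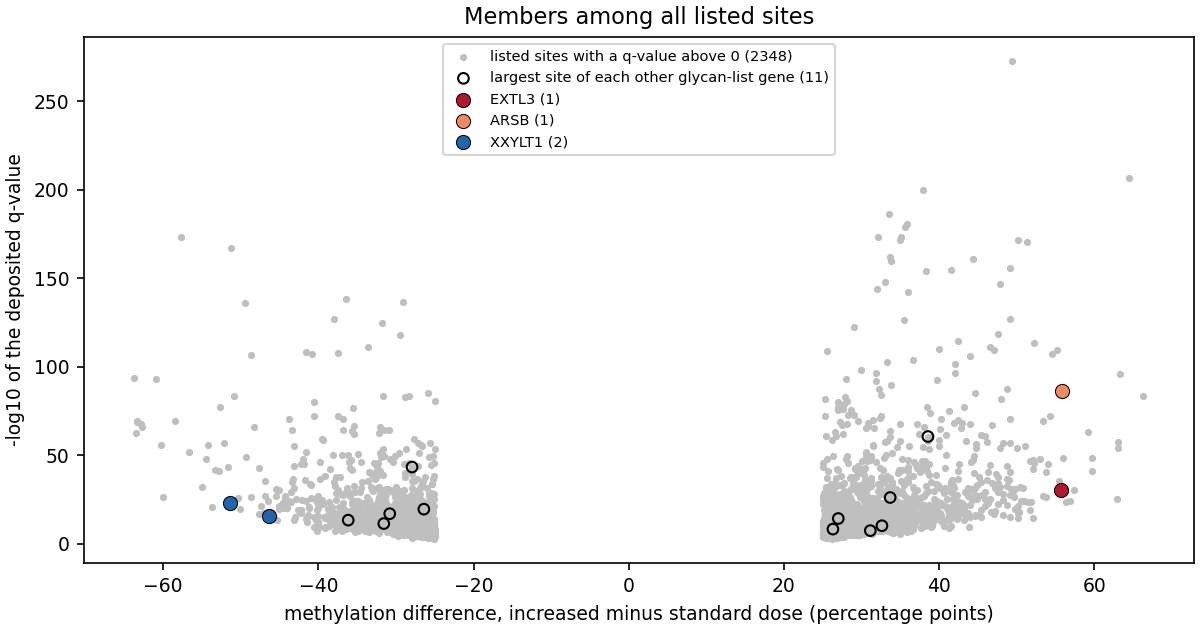
Each point is a listed site, with the deposited methylation difference (percentage points, increased minus standard dose) on the horizontal axis and -log10 of the deposited q-value on the vertical axis. Members are filled, the largest site of each of 11 other glycan genes is an open circle, and 1 site with a q-value listed as 0 is not drawn. The members sit at the outer edges of the cloud, and the open circles between 26.3 and 38.6 points in size.

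The sequences around the hypermethylated member sites shared a property that those around the hypomethylated ones, both in XXYLT1, lacked. In the Sscrofa11.1 reference, the EXTL3 and ARSB windows (150 bases to each side of the CpG) were soft-masked as repeats over 100% of their length, and the XXYLT1 windows over 13.3% and 30.9%, with neither XXYLT1 CpG itself masked. A search of the genome with 50 bases to each side of each site found 91185 other copies of the ARSB window with at least 90% identity over at least 80 bases. For the EXTL3 window 1009 other copies were found, and for both XXYLT1 windows 0. At 95% identity the copies fell to 9778 for ARSB and 2 for EXTL3. The closest other copy matched the ARSB window at 99 bases and the EXTL3 window at 96.

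The EXTL3 and ARSB sites lay in copies of one and the same interspersed repeat, in opposite orientation on the chromosome plus strand. Over 241 aligned bases the windows were 85.1% identical, with EXTL3 read on the minus strand. Because ARSB is itself a minus-strand gene, each copy lay in the same orientation with respect to transcription of its host gene. The listed CpGs were not the same CpG of the repeat. They were 31 bases apart in the ARSB copy, and neither copy had a CpG at the position of the other's listed CpG. The windows with 150 bases to each side, which reach beyond the printed sequences, held 17 CpGs in ARSB and 7 in EXTL3, of which 2 were shared in the alignment. How far reads from such copies could be placed, and its part in these differences, was not tested.

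This repeat was common among the listed sites. Of 2252 listed sites on chromosomes, 1253 (55.6%) lay in a sequence that aligned with the ARSB or EXTL3 window over the site at 75% identity or more, compared with 575 of 3206 (17.9%) sampled CpGs in MspI fragments of 40 to 400 bp. The sampled CpGs are not the tested ones, so this is no measure of enrichment among tested sites. With at least 200 bp aligned the shares were 42.9% and 12.8%. Hypermethylation was listed for 60.9% of the repeat sites and 58.1% of the others, and the median sizes were 30.6 and 30.1 points. At least 50 points were reached by 38 repeat sites and 29 of the 999 others. These shares were not tested against each other. Both hypermethylated members were repeat sites and both hypomethylated ones were not.

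The listed sites that could be placed in the repeat numbered 1177, at 90 positions of the ARSB window. The CpG listed in ARSB was the 2nd most frequent of these positions, with 91 other listed sites at the corresponding CpG of other copies. Of these, 53 were hypermethylated and 38 hypomethylated, with sizes from 25.1 to 55.9 points and a median of 30.6. The ARSB value of 55.8 was thus close to the top of this range, and its sign was that of 58.2% of the corresponding CpGs. The position of the EXTL3 site was rare, with 2 other listed sites, both hypermethylated, at 27.2 and 27.8 points.

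**Figure D3:**
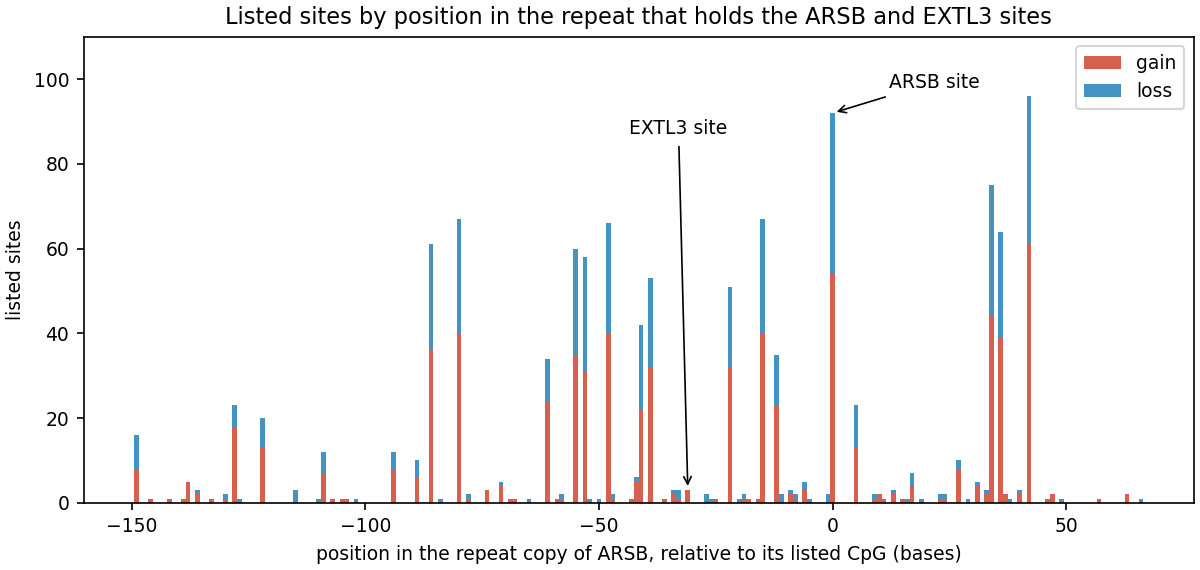
Bars count listed sites by position in the repeat copy of ARSB, in bases from its listed CpG, split into gains (hypermethylated) and losses (hypomethylated) with the increased dose. The ARSB position holds 92 sites including its own, 54 of them gains, and the EXTL3 position, 31 bases before it, holds 3.

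CpG density also differed among the members. The observed over expected CpG ratio over 150 bases to each side was 1.02 around the ARSB site, 0.420 around EXTL3, and 0.482 and 0.261 around the XXYLT1 sites, against a median of 0.589 over listed sites and a middle range of 0.454 to 0.744. The GC share was 47.2% for ARSB, 47.5% for EXTL3, and 51.5% and 33.6% for XXYLT1. The last of these was far under the median of 51.8%. A lenient definition of a CpG island was at least 200 bp, GC share over 50% and ratio over 0.6. By it, ARSB and the XXYLT1 site at 132097531 were in islands, as were 70.6% of listed sites. The other XXYLT1 site was in a shore within 2000 bp of an island, as were 24.8%. EXTL3 was in neither, as were 4.62%. By a stricter definition (500 bp, 55% and 0.65), none of the 4 was in an island or a shore, like 64.8% of listed sites.

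Each member was close to an MspI cut, as the assay requires. The fragments were 286 bp for EXTL3, 474 bp for ARSB, and 364 and 253 bp for XXYLT1, in which the sites lay 57, 15, 86 and 44 bases from the nearer cut. The median over all listed sites was 280.5 bp and 41 bases. The ARSB fragment holds 14 CpGs, of which 1 was listed, and the XXYLT1 fragments hold 11 and 2, the EXTL3 fragment 5. No member fragment held a second listed site.

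Half-sites of the vitamin D receptor, a nuclear receptor that binds DNA as a heterodimer with the retinoid X receptor, were searched on both strands of the same windows. The letters AGGTCA, the letters AGTTCA, the variant GGGTCA and the variant GGTTCA were searched together, each counted wherever it occurred. A single half-site was found in the EXTL3 window and in that of XXYLT1 at 132097531, and 0 in the other 2, while 44.1% of all listed windows held at least 1. The direct repeat of half-sites with a 3-base spacer (DR3) was found in 0 of 2252 windows, members included.

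Other listed sites around the members were counted by distance. No other listed site lay within 100 kb of EXTL3 or ARSB. Over listed sites on chromosomes, the median distance to the listed site before was 232.4 kb, and 529 of 2232 such distances exceeded 1 Mb. A lack of listed sites within 100 kb is thus common in the table. Within 1 Mb, ARSB had 4 other listed sites, 3 hypermethylated and 1 hypomethylated, and EXTL3 had 2, both hypermethylated. These are small counts to set against the 59.3% of all listed sites that were hypermethylated. Apart from each other, the XXYLT1 sites had none within 1 Mb and 1 within 5 Mb.

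The nearest listed site before ARSB was in an intron of AP3B1, a subunit of an adaptor complex of endosomal sorting, 593.6 kb away at 40.8 points, and the nearest after it was in an intron of BHMT, which methylates homocysteine, 201.9 kb away at 38.0 points. Between them and ARSB lay 103 and 14 tested sites. For EXTL3 the neighbours were an intronic site of GULO, the enzyme of the last step of vitamin C synthesis (32.7 points, 209 tested sites in between), and a site with the symbol KIF13B, a kinesin (30.2 points, 42 in between), which was intergenic in RefSeq. The XXYLT1 sites were preceded by 1201 and followed by 1015 tested and unlisted sites, up to intergenic sites 8298 kb and 3497 kb away with differences of 30.7 and 28.4 points. The pair of losses in XXYLT1 was thus flanked by long stretches of tested sites that were not listed.

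**Figure D4:**
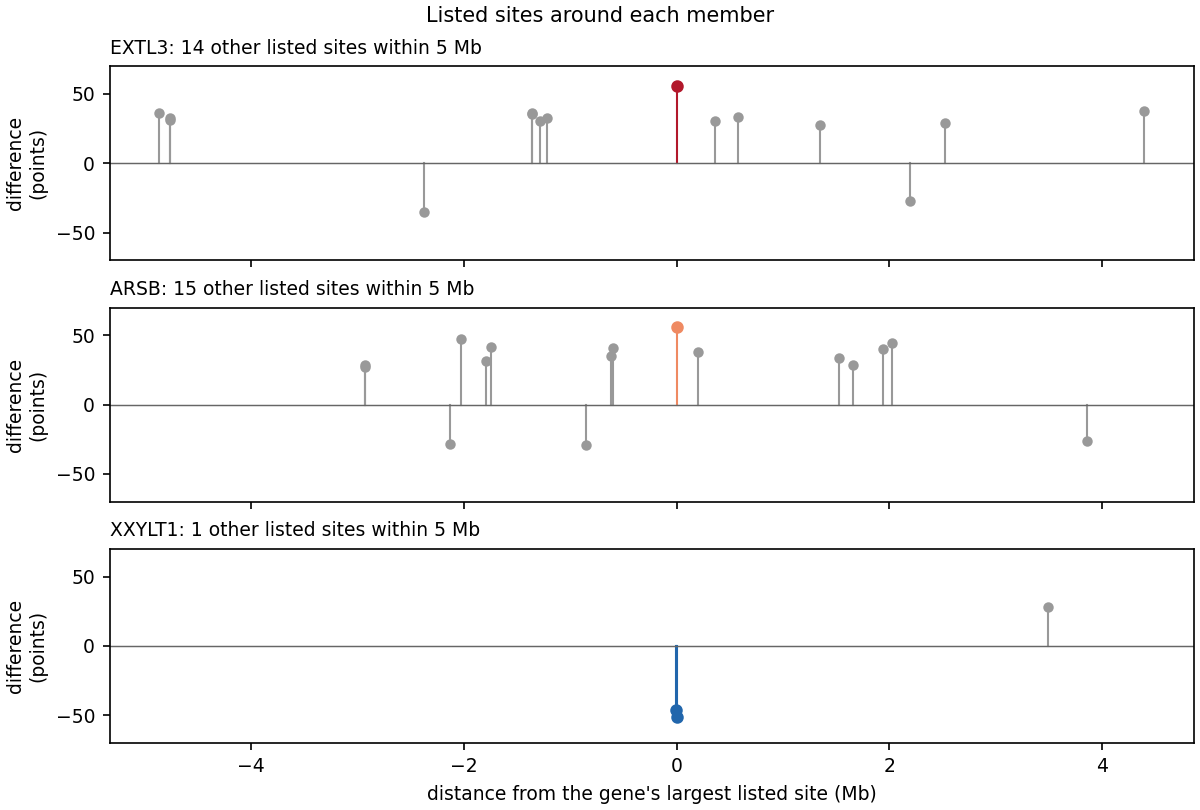
Stems show the deposited methylation difference (percentage points, increased minus standard dose) of every listed site within 5 Mb of the largest site of each gene, by distance (Mb). Members are coloured and others grey. EXTL3 had 14 other listed sites in this range, of which 12 were hypermethylated, ARSB had 15, of which 12 were hypermethylated, and XXYLT1 had 1. Of all listed sites, 59.3% were hypermethylated, and the counts were not tested against this share.

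All 3 genes are long. EXTL3 spans 126.0 kb, ARSB 164.6 kb and XXYLT1 203.1 kb, against a median of 20.7 kb over 19560 protein-coding RefSeq genes and 75.9 kb over the 841 of these with a listed site. They hold 218, 284 and 593 CpGs in MspI fragments of 40 to 400 bp. The median was 99 over all protein-coding genes and 342 over those with a listed site. All 3 genes were above the median of all genes, and XXYLT1 alone was above that of genes with a listed site.

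Other genes of the same pathways were taken from 11 lists of 145 genes, of which 137 had a symbol in the Ensembl gene names. A listed site was present in 14 of them (10.2%), and in 11 of 134 (8.21%) without the 3 members, compared with 5.65% of all 15622 Ensembl symbols. The list genes were longer than most, with a median of 39.5 kb over the 125 that could be measured. The mean difference was a gain in 8 of the 14 (57.1%), against 59.7% of all 883 matched symbols with a listed site, so the direction was near that of the table as a whole. The other 11 genes had largest differences between 26.3 and 38.6 points in size. Their median of 31.1 was near the 31.0 of all listed symbols. Every member was above this range, which follows from the choice of the members with their values known.

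Among the enzymes of chain synthesis, FAM20B, the kinase that phosphorylates the xylose of the linker, had 2 hypermethylated sites (31.1 and 28.7 points). No other exostosin gene of the 3 with an Ensembl symbol had a listed site beside EXTL3. A site was listed for 5.65% of all symbols, so its absence in 3 genes is near the overall share. Of 20 genes that modify heparan sulfate, HS3ST3A1 had 1 hypermethylated site (32.6 points) and HS3ST4 had 4 sites, 2 in each direction, the largest at -30.8 points. Both encode sulfotransferases that act late on heparan sulfate chains. In chondroitin sulfate synthesis, CSGALNACT1, which starts the chain, was hypomethylated (-31.6 points) and CHST15, a sulfotransferase, hypermethylated by 27.0 points. B3GNT7, which extends keratan sulfate, was hypermethylated by 33.7 points at a site in the 1000 bp upstream of the gene, the only promoter site among the largest sites of these genes.

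Among the enzymes of breakdown, no listed site was found in the 13 other lysosomal genes, nor in 6 other arylsulfatases, 10 genes of hyaluronan metabolism or 16 genes of sugar nucleotide and sulfate donors. With 5.65% of all symbols holding a listed site, under 1 such gene would be expected in each of these lists, so the absence of a site is near the overall share. The core proteins, which carry the chains, had 4 of 24 genes with a site, a small count to set against the same 5.65%. TGFBR3 (betaglycan) was hypermethylated at 2 sites (38.6 and 34.96 points) and SRGN (serglycin, of secretory granules) at 1 (26.3 points), while GPC5 (a glypican) was hypomethylated at -27.9 points and VCAN (versican, of the matrix) at -26.4 points. The VCAN site lay in an intron of XRCC4 in RefSeq, and its assignment depends on the annotation. In the group of XXYLT1, POFUT1, which adds fucose to EGF repeats, was hypomethylated (-36.2 points) at a site outside its RefSeq gene body, and the other 13 genes of the group, Notch receptors included, had no listed site. Of the 11 other genes, 7 had their largest site in the repeat that holds the EXTL3 and ARSB sites, which is near the 55.6% of all listed sites on chromosomes.

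**Figure D5:**
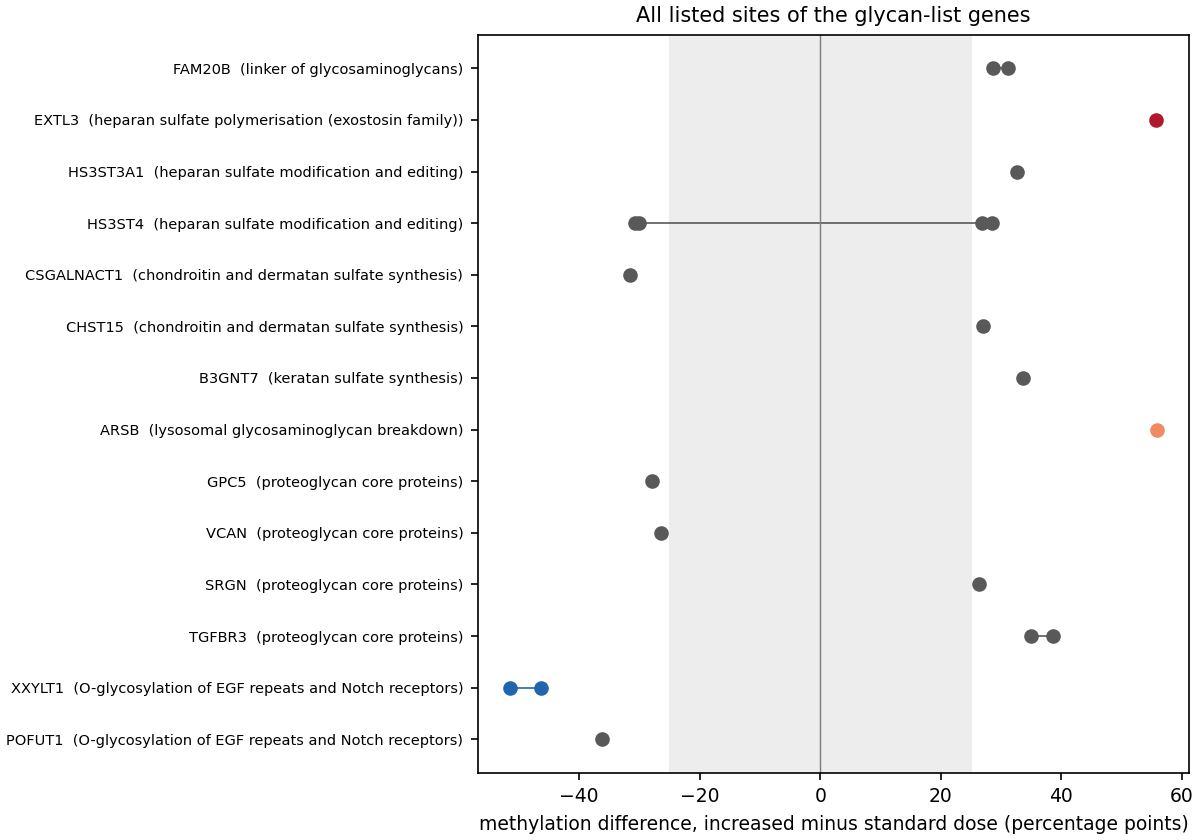
Points are all listed sites of the 14 glycan genes with a site, by deposited methylation difference (percentage points, increased minus standard dose). Grey shading marks differences under 25 points, which the table leaves out. EXTL3 and ARSB lie at 55.8 points, XXYLT1 at -46.4 and -51.4, and the other genes between -36.2 and 38.6.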

How the data were processed

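Lung DNA of 16 pigs (8 per dose group) was examined by reduced representation bisulfite sequencing. By the methods of the study, FlexBar was used for trimming and BSMAP (MspI mode) for alignment to Sscrofa11.1, CpGs covered by over 5 reads were retained, and methylKit compared the doses at limits of 25 points and q under 0.05. The submitters' processing notes name FastQC, methylKit 1.26.0 and Sscrofa11.1. Each row of the deposited table carries a p-value and a q-value from the authors. Its methylation difference is handled as a score with a sign, in percentage points, and was likewise computed by the authors. No header states its sign. A positive sign was taken as higher methylation on the increased dose, because the numbers of positive and negative values match those of hyper- and hypomethylated sites in the study. The wording of the study for SHMT1, which has listed sites of both signs, does not settle the sign. These columns are the authors' own comparison. They are printed because the members are rows of that table, and nothing was tested from them. The sources used here do not state whether reads or animals were the unit of the test, and q-values would be too small in the former case.

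Sites were matched to the RefSeq copy of Sscrofa11.1 (all 2252 chromosomal sites are CpGs there, and 97 sites on scaffolds were left out of sequence features). Promoters were taken as 1000 bp before the gene start. Copies were counted with BLAST 2.17.0 (blastn, word size 16), and repeat sites were aligned with Biopython 1.88. The background sample was every 2000th CpG of MspI fragments. The functions were tested on simulated data. Of 898 symbols, 883 matched the Ensembl gene names.

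All sites of the 3 genes are named, with every list gene that has a listed site, the genes next to each member by signed difference, and the nearest listed site on each side; EPYC, SMOC1, XRCC4 and LOC110259406 were named after their values were seen. The members and lists were chosen with earlier results of these data known, and the repeat comparison and the count of genes with 2 sites after seeing the data. The lists were linker synthesis, heparan sulfate polymerisation, heparan sulfate modification, chondroitin and dermatan sulfate synthesis, keratan sulfate, hyaluronan, lysosomal breakdown, other arylsulfatases, core proteins, O-glycosylation of EGF repeats with Notch receptors, and sugar and sulfate donors. Alternatives were other gene assignments, stricter limits, other windows, islands, fragment ranges, distances and search settings.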

Additional observations from a re-analysis of the deposited data

How the results depend on the processing

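The number of sites in each of EXTL3, ARSB and XXYLT1 was the same by RefSeq gene body, with 5000 bp added, with q under 1e-10 and at 30 or 35 points. The limits on q and size could not have removed a member site. The genes were chosen with their values known, and these values lie well beyond the limits. The XXYLT1 difference was -48.9 points as a mean of both sites. The size ranks of ARSB, EXTL3, XXYLT1 at 132102048 and XXYLT1 at 132097531 became 15, 16, 22 and 39 among sites of the same direction, and 11, 12, 26 and 56 with 1 site per gene. With 35 points as the limit, 5 list genes kept a site instead of 14, since fewer sites pass. The share of list genes with a mean gain was 60% by site (12 of 20) and 63.6% by RefSeq gene body.

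With 50 bases to each side the observed over expected CpG ratio was 0.135 for EXTL3, 0.831 for XXYLT1 at 132097531 and 0.656 for XXYLT1 at 132102048, and with 500 bases it was 0.273 for EXTL3 and 0.130 for XXYLT1 at 132102048. The stricter island definition put 0 of the members in an island. No member fragment was within 40 to 220 bp, a range that held 33.3% of listed sites on chromosomes. The fragments of the 1 EXTL3 site and both XXYLT1 sites were within 40 to 400 bp, like 72.2% of listed sites. Other listed sites numbered 0 within 100 kb of ARSB and EXTL3, and 15, 14, 2 and 2 within 5 Mb of ARSB, EXTL3 and the XXYLT1 sites. Counting reference CpGs between the nearest listed sites in place of tested rows gave 10043 for ARSB, 18561 for EXTL3, and 74821 and 42925 for XXYLT1.

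Of search settings added after seeing the data, megablast gave 82116 other copies for ARSB and 801 for EXTL3. A minimum of coverage, and values without 1 animal at a time, were intended and not run, since depths and values per animal were not used here. No paired analysis was possible because no result comes from a test on single animals.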
